A study of Homo sapiens with 52 samples.

Results

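The 58 genes described here build and run mitosis: the checkpoint that watches the spindle, the kinases and cyclins that drive division, the centromere and kinetochore, the chromosomal passenger complex, the spindle, the contractile ring and the condensed chromosome. They were taken by symbol from a fixed list and followed among 59408 genes through mRNA-seq of WI-38 cells, a strain of normal human lung fibroblasts that divides a limited number of times. Their measured levels were not part of the rule, but the list was chosen with earlier results of these data known. The genes fall into 8 sets by role. Of the 58, 54 averaged 10 or more normalized counts across the 26 groups and were tested, among 14876 tested genes in all.

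The cells were wild type, and 26 groups of 2 libraries each were compared. Untreated young cells, at a population doubling level of 32 to 46, were the control of every comparison. Cells were exposed for 24 h to 0.009% SDS, a detergent that damages the plasma membrane (the cells that follow are called PMD-Sen), to 75 mM KCl, which lets calcium in (Ca2+-Sen), or to 250 nM doxorubicin, a topoisomerase poison that breaks DNA (DDR-Sen). They were collected at the end of the exposure, called day 0, then daily up to day 4, and on days 6, 8 and 16. Replicatively senescent cells (RS) had been passaged to a population doubling level near 52. The deposited tables give 1 comparison per treatment day or RS and no value of a single library, so spread is known here only as the standard error (SE) of each log2 fold change, and whether the libraries of the groups overlap could not be seen. The methods describe the samples of a group as independent, but neither they nor the labels say whether separate cultures were treated. The p-values thus rest on the spread among libraries, 2 in each group compared, and may not cover the spread between cultures. The recovered library sizes, in M counted reads, were 15.4 to 18.8 for untreated cells, 19.1 to 53.5 for the treated groups and 45.2 to 58 for RS. All 10 fibroblast markers were expressed, with a summed level of 592832 normalized counts in untreated cells and 261039 to 636837 elsewhere. The epithelial markers summed to 27.2 to 138, the endothelial to 996 to 5406 and the leukocyte to 5.08 to 42.1 normalized counts. Of these markers 1 of 5, 3 of 5 and 1 of 5 had a mean of at least 10. The endothelial sum was nearly all TEK, at 2288 in untreated cells. There VWF was at 34.1, PECAM1 at 2.17, KDR at 0.706 and CDH5 at 0. The part of these markers in the results was not tested.

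Mitotic genes are transcribed mainly in G2 and M phase, so their RNA is abundant where cells are dividing and scarce where they have left the cycle. In resting cells the DREAM complex holds many of these promoters silent through the CHR element and nearby CCAAT boxes take part in their activity, and in dividing cells B-MYB and FOXM1 switch them on. Senescence is a lasting exit from the cycle, and low RNA of these genes is among its usual marks. In bulk RNA, fewer dividing cells and less mitotic RNA in each cell cannot be told apart.

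The promoters show what many of the members share apart from their RNA. RefSeq promoter windows (build GRCh38.p14), each of 250 bases before and 50 after a start site, were found for 47 of the 58 members, 59 windows in all. The CHR letters TTTGAA, searched on both strands, were in 36 of the 59 windows (61.0%), against 15.2% of all 35116 windows. The CCAAT box, searched as CCAAT on both strands, was in 69.5% of the members' windows and 34.6% of all, and both motifs together were in 44.1% and 5.9%. The CHR variant TTCGAA was in 8.47% and 1.45%. The letters of the CHR or its variant can overlap a CCAAT box only by a shared T or A. A match is a description of letters and not a bound site. The 100 bases before the start are shown for 7 members, picked after the matches were seen, with the CHR and CCAAT letters of either strand in capitals. PLK1, CCNB2, CDC20 and HMMR carry both motifs, CENPA carries the CHR letters without a CCAAT box, CCNB1 carries CCAAT boxes without the CHR letters, and INCENP, among the members that changed least, carries both.
PLK1, chr16:23678789-23678888, plus strand: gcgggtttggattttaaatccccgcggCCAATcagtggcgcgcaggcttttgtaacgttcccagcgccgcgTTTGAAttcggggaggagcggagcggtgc
CCNB2, chr15:59105046-59105145, plus strand: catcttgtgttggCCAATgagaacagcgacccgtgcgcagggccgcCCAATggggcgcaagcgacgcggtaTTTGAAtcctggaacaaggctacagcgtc
CDC20, chr1:43358881-43358980, plus strand: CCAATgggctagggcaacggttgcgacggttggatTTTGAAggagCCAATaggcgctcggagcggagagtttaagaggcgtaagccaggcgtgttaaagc
HMMR, chr5:163460532-163460631, plus strand: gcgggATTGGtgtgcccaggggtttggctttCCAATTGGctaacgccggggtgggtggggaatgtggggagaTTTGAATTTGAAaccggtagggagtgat
CENPA, chr2:26785956-26786055, plus strand: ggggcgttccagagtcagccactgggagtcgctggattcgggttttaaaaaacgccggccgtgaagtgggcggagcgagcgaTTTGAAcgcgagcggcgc
CCNB1, chr5:69167050-69167149, plus strand: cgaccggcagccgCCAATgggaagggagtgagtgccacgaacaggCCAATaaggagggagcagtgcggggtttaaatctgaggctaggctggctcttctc
INCENP, chr11:62123911-62124010, plus strand: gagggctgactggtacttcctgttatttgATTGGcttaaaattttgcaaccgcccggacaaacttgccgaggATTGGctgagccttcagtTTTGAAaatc

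**Figure D1:**
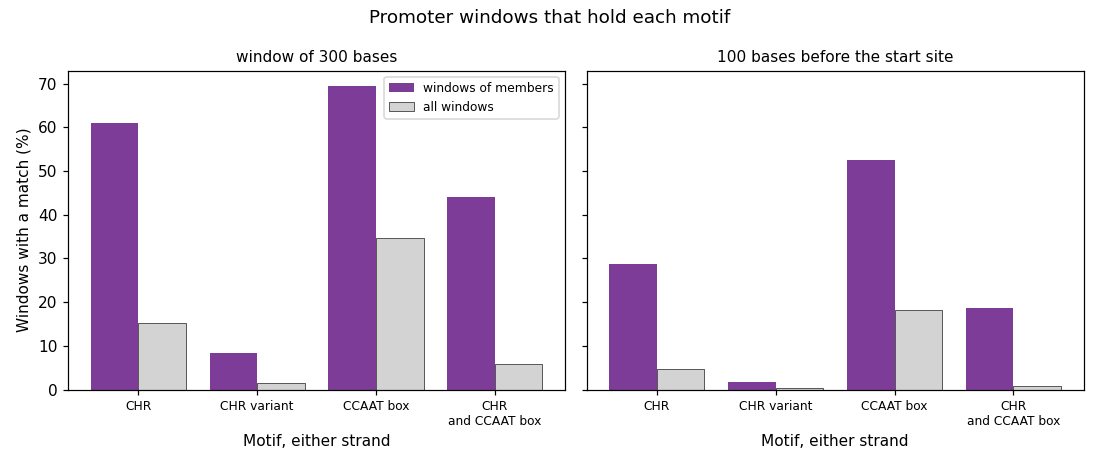
Share of promoter windows (percent) that hold the CHR, its variant, the CCAAT box, or CHR and CCAAT box together, for the 59 windows of members and all 35116 windows, in the whole window and in the 100 bases before the start. The CHR is in 61.0% of members' windows and 15.2% of all, and within the 100 bases in 28.8% and 4.61%.

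Nearly the whole group was lower after every treatment, by very different amounts and along different courses. A member was called where the p-value in the deposited tables, after Benjamini-Hochberg adjustment across the tested genes, was under 0.05. An adjusted p marked DESeq2 is the DESeq2 p-value of those tables after this same adjustment. Of the 54 tested members, 20 were called lower in all 25 comparisons (37%), against 64 of the 14876 tested genes (0.43%). These 20 were CDC20, CCNA2, CDKN3, CENPA, CENPE, CENPF, CENPM, NDC80, NUF2, BIRC5, TPX2, DLGAP5, ASPM, HMMR, TROAP, CEP55, ANLN, SMC4, MKI67 and PIMREG. At the other end, BUB3 and CDC25C were called lower in 17 comparisons, and CDK1, CDC25B and INCENP in 20. Only 3 calls were in the higher direction, CENPN in PMD-Sen and ECT2 and CDC25B in Ca2+-Sen, all on day 0.

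**Figure D2:**
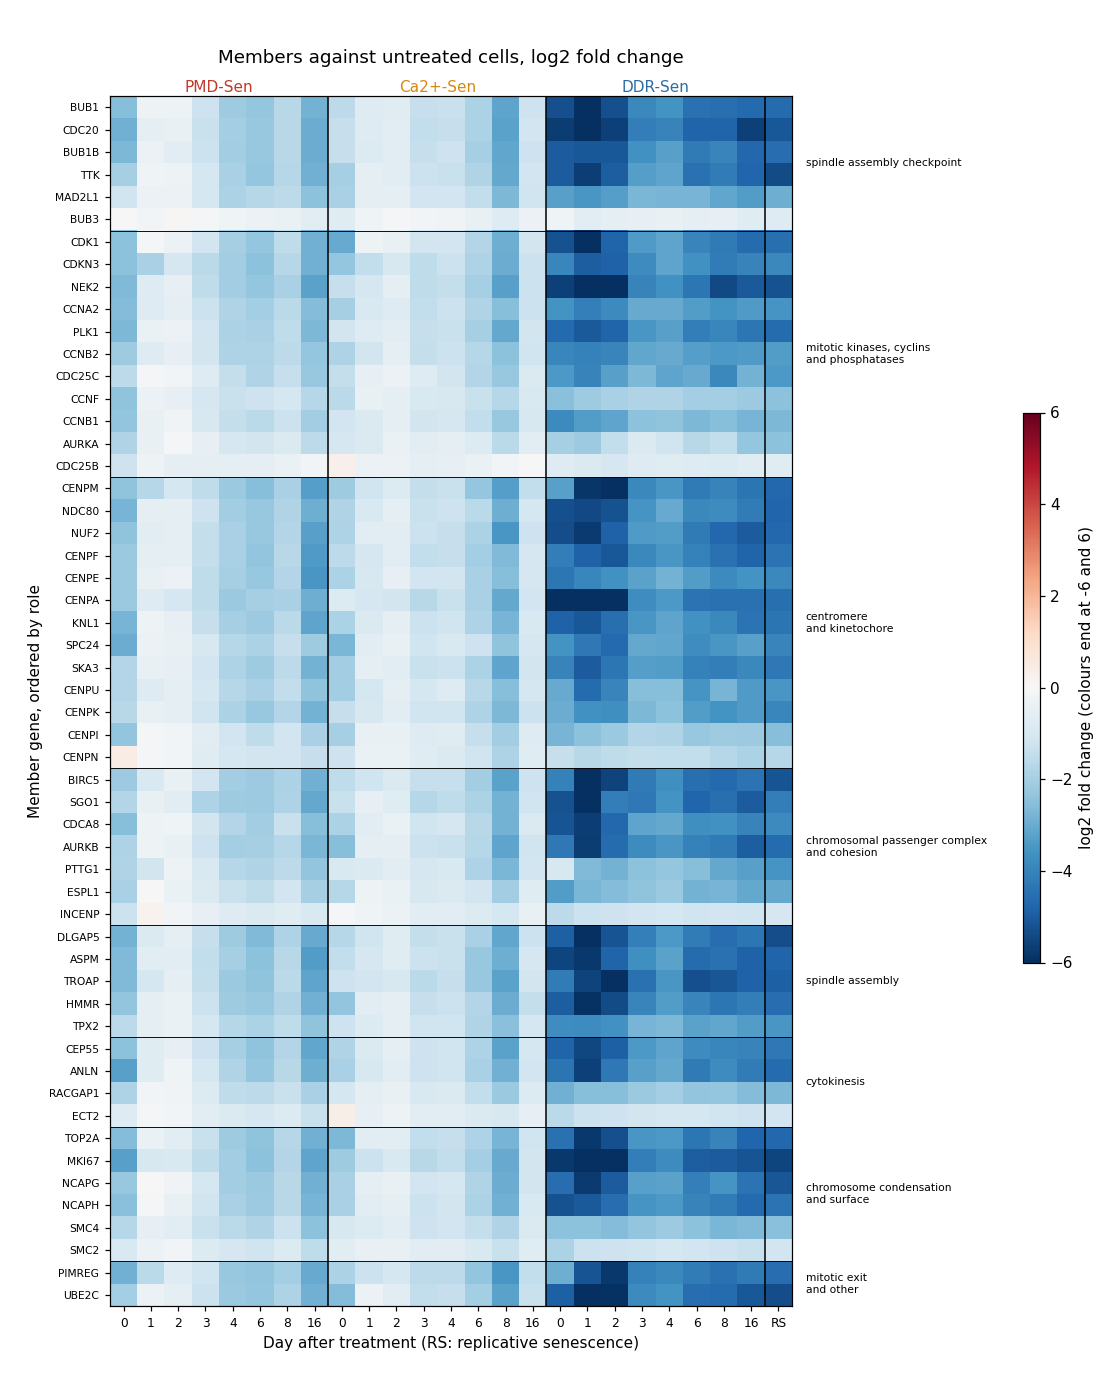
log2 fold change of the 54 tested members (rows, ordered by role) against untreated cells on each day of PMD-Sen, Ca2+-Sen and DDR-Sen and in RS (columns), from blue (lower) through white to red (higher), with colours that end at -6 and 6. The DDR-Sen and RS columns hold the lowest values, with medians from -5.04 to -3.17 in DDR-Sen, and the rows of BUB3, CDC25B and INCENP stay nearest to 0 in RS.

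In PMD-Sen the members fell, came back and fell again. On day 0, 52 of the 54 were called lower, against 20.2% of all tested genes, with a median log2 fold change of -2.31 (20.1% of the untreated level). The lowest were MKI67, the proliferation antigen that coats mitotic chromosomes, at 417 normalized counts against 3970.4 in untreated cells (log2 fold change -3.25 ± 0.49, SE), ANLN, a scaffold of the contractile ring, at 556 against 5272 (-3.25 ± 0.51), and SPC24 of the NDC80 complex at 39.0 against 310.1 (-2.99 ± 0.35). CENPN, which binds CENPA nucleosomes, was higher, at 1037 against 768 (0.43 ± 0.15), with an adjusted p of 0.0128 (DESeq2), on a day when 19.8% of all genes were called higher. BUB3, a checkpoint protein, was at 3117 against 3067 (0.02 ± 0.11) and was not called. After the detergent was removed the members moved back towards the untreated level. On day 1, 30 were called lower (10% of all genes) with a median of -0.43, and on day 2, 29 (7%) with a median of -0.46. CDK1, the master kinase of mitosis, was at 661 against 716 (-0.12 ± 0.16) on day 1, the condensin subunit NCAPG at 945 against 924 (0.03 ± 0.14) and INCENP, the scaffold of the chromosomal passenger complex, at 1028 against 885 (0.21 ± 0.16), none of them called. CDKN3, a phosphatase that acts on CDKs, was at 92.0 against 353 (-1.94 ± 0.24) that day, CENPM at 80.2 against 259 (-1.69 ± 0.27) and PIMREG at 210.0 against 636 (-1.60 ± 0.18), the lowest of the 54.

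From day 3 of PMD-Sen the members were lower again. Those called numbered 52 on day 3 (6.07% of all genes), 54 on day 4 (8.39%), 54 on day 6 (6.98%), 54 on day 8 (6.05%) and 53 on day 16 (11.6%). The medians were -1.17, -1.94, -2.18, -1.64 and -2.86, the last being 13.8% of the untreated level. BUB3 (-0.08 ± 0.10) and CDC25C (-0.77 ± 0.42) were not called on day 3, nor was CDC25B, a phosphatase that activates CDK1, on day 16 (-0.18 ± 0.16). The lowest on day 16 were the kinetochore motor CENPE at 108 against 1221 (-3.49 ± 0.31), the kinetochore protein CENPF at 255 against 2695 (-3.40 ± 0.68) and the spindle-pole protein ASPM at 159.5 against 1652 (-3.37 ± 0.99).

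Ca2+-Sen began less deep by the median and ended differently. On day 0, 51 of the 54 were called lower (26.6% of all genes) with a median of -1.71. The lowest was CDK1 at 89.0 against 716 (-3.01 ± 0.25), then SPC24 at 46.7 against 310.1 (-2.73 ± 0.27) and TOP2A, which untangles sister DNA, at 718 against 4592 (-2.68 ± 0.40). ECT2, the exchange factor that switches on RhoA at the cleavage site, was higher at 2006 against 1596 (0.33 ± 0.10), adjusted p = 0.00227 (DESeq2), as was CDC25B at 3599 against 2873 (0.32 ± 0.10), adjusted p = 0.00297 (DESeq2), on a day when 23.6% of all genes were called higher. INCENP was at 836 against 885 (-0.08 ± 0.14) and was not called. On days 1 and 2, 46 (7.15%) and 40 (2.57%) members were called lower, with medians of -0.78 and -0.60. The numbers were 52 on day 3 (5.72%), 52 on day 4 (7.04%), 48 on day 6 (5.53%), 53 on day 8 (17.8%) and 52 on day 16 (6.09%), with medians of -1.28, -1.21, -1.83, -2.83 and -1.10. The members thus stood lowest on day 8, at 14.1% of the untreated level by the median, and at 46.6% on day 16. On day 8 the lowest were NUF2, the partner of NDC80, at 30.5 against 344 (-3.50 ± 0.28), PIMREG at 56.8 against 636 (-3.48 ± 0.21) and CENPM at 26 against 259 (-3.32 ± 0.30). BUB3 and CDC25C were not called on day 3 (-0.16 ± 0.09 and -0.79 ± 0.40) or day 4 (-0.19 ± 0.10 and -1.09 ± 0.43), CDC25B was not called on day 8 (-0.15 ± 0.09), and CDC25B (0.01 ± 0.09) and CDC25C (-0.87 ± 0.41) were not called on day 16.

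In DDR-Sen all 54 tested members were called lower on each of the 8 days, and the median was below that of both other inducers on each day. The share of all genes called lower was 14.9% on day 0, 11% on day 1, 7.49% on day 2, 6.88% on day 3, 10.5% on day 4, 13.8% on day 6, 11.8% on day 8 and 16.7% on day 16. The median log2 fold change of the members was -4.10 on day 0, -5.04 on day 1, -4.61 on day 2, -3.31 on day 3, -3.17 on day 4, -3.84 on day 6, -3.88 on day 8 and -4.07 on day 16. The lowest on day 1 were MKI67 at 17.7 against 3970.4 (-7.81 ± 0.23), UBE2C, a ubiquitin carrier of the anaphase-promoting complex, at 3.14 against 585 (-7.54 ± 0.49), and CENPA, the histone that marks the centromere, at 1.26 against 217 (-7.44 ± 0.78). These levels rest on about 56.5, 10.1 and 4.02 reads over both libraries, and 11 of the 54 members were under 10 normalized counts that day. PTTG1, the securin that holds separase back, was at 408 against 784 (-0.94 ± 0.19) on day 0. BUB3 was at 2546 against 3067 (-0.27 ± 0.10) that day, adjusted p = 0.0396 (DESeq2), the smallest change among the 54.

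In RS all 54 were called lower (11.6% of all genes) with a median of -4.29, or 5.11% of the untreated level. The lowest were MKI67 at 87.1 against 3970.4 (-5.51 ± 1.07), the checkpoint kinase TTK at 10.0 against 415 (-5.37 ± 0.44) and the spindle protein DLGAP5 at 24.2 against 978 (-5.34 ± 1.07). INCENP (-0.99 ± 0.21), BUB3 (-0.78 ± 0.14) and CDC25B (-0.74 ± 0.16) changed least.

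**Figure D3:**
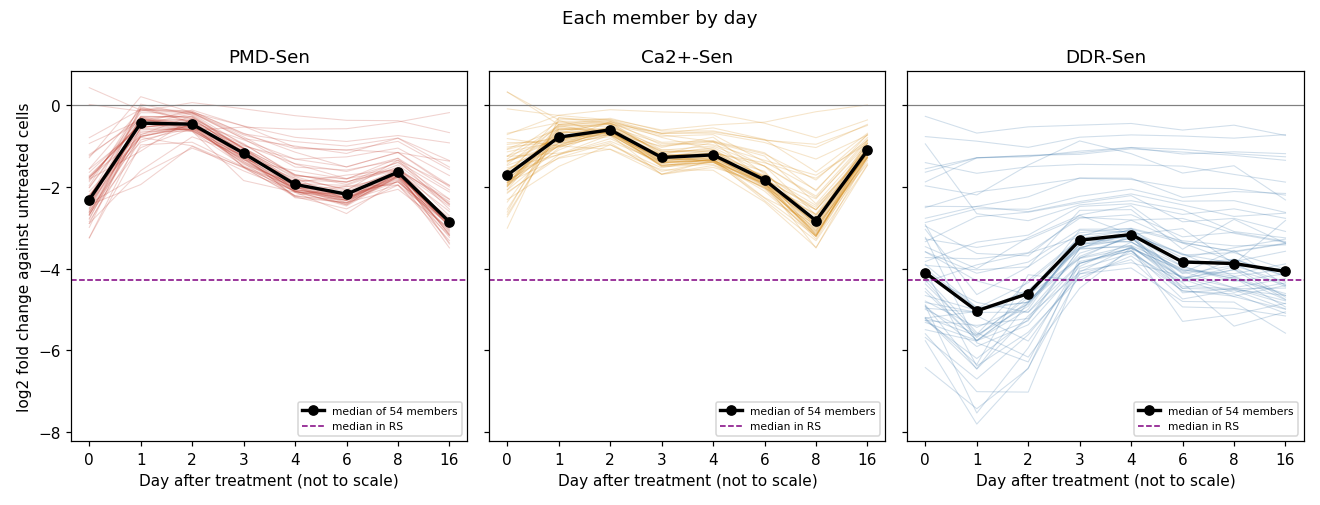
log2 fold change of each tested member against untreated cells (thin lines) by day for PMD-Sen, Ca2+-Sen and DDR-Sen, with the median of the 54 members and the median in RS (-4.29) marked. The median of PMD-Sen goes from -2.31 on day 0 to -0.43 on day 1 and ends at -2.86, that of Ca2+-Sen ends at -1.10, and that of DDR-Sen stays between -5.04 and -3.17.

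The spindle assembly checkpoint holds anaphase until every kinetochore is attached. Its 6 members (BUB1, BUB1B, BUB3, TTK, MAD2L1 and CDC20) had a median of -2.27 on PMD-Sen day 0 and -0.31 on day 1, when 1 of them was called. BUB1, a kinase that recruits the others to the kinetochore, was at 881 normalized counts in untreated cells, and in PMD-Sen at 152 on day 0, 725 on day 1 and 122 on day 16. In Ca2+-Sen it was at 294 on day 0, 529 on day 2, 98.2 on day 8 and 368 on day 16, and in DDR-Sen at 22.8 on day 0, 11.9 on day 1, 74.5 on day 4 and 34.9 on day 16. Each DDR-Sen level of BUB1 lay below each of its levels in the other inducers, and its RS level was 35.5. TTK, at 415 in untreated cells, was at 103, 104 and 13.0 on day 0 of PMD-Sen, Ca2+-Sen and DDR-Sen. BUB3 stood apart from its partners, at 1771 to 3217 in all treated groups against 3067 untreated. Its DDR-Sen levels (1839.7 to 2546) lay within the range of the other inducers.

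Among the kinases, cyclins and phosphatases, 11 members were tested. CDK1, at 716 normalized counts in untreated cells, was at 131 on PMD-Sen day 0, 89.0 on Ca2+-Sen day 0 and 19.1 on DDR-Sen day 0, and on day 1 at 661, 579 and 8.16. Its day 1 level was therefore close to untreated after SDS and KCl and far below it after doxorubicin. CCNB1, the cyclin it pairs with, was at 1779 untreated, at 347, 809 and 125 on day 0 and at 273 in RS (-2.71 ± 0.20). PLK1, a kinase that acts from the centrosomes to the midbody, was at 171, 525 and 43.9 on day 0 against 1109.8. The centrosomal kinase AURKA had log2 fold changes of -2.32 to -0.87 over the DDR-Sen days, a milder range than the -5.02 to -3.26 of PLK1 by its values. Of the CDK1-activating phosphatases, CDC25B ranged in DDR-Sen from -1.03 to -0.72 and CDC25C from -4.00 to -2.69, with only 89.7 normalized counts of CDC25C in untreated cells.

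The centromere and kinetochore set, which ties chromosomes to microtubules, had 13 tested members. Its medians were -2.24 on PMD-Sen day 0, -1.88 on Ca2+-Sen day 0, -4.83 on DDR-Sen day 1 and -4.31 in RS. CENPA went from 217 in untreated cells to 47.2 on PMD-Sen day 0, 124 on Ca2+-Sen day 0 and 2.52 on DDR-Sen day 0. NDC80, which grips the microtubule, went from 433 to 63.6, 125 and 11.2 on the same days and to 16.0 in RS. CENPN was at 1037 on PMD-Sen day 0, 323 on Ca2+-Sen day 0 and 290.2 on DDR-Sen day 0 against 768, and was the member of the set called higher. Among the CENP proteins that stay at the centromere, CENPN and CENPI were at -1.69 ± 0.26 and -2.56 ± 0.24 in RS. CENPU was at -3.47 there, CENPK at -3.93 ± 0.51, CENPA at -4.51 and CENPM at -4.71 ± 0.42, a spread that was not tested.

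The chromosomal passenger complex corrects attachments and later guides cytokinesis. Its kinase AURKB was at 401 in untreated cells, 113 on PMD-Sen day 0, 68.9 on Ca2+-Sen day 0, 20.6 on DDR-Sen day 0 and 7.77 on DDR-Sen day 1. BIRC5 (survivin) and CDCA8 (borealin) were at -6.39 ± 0.50 and -5.65 ± 0.29 on that day, while their scaffold INCENP was at -1.28 ± 0.16. Of the genes that hold or release sister chromatids, SGO1, a protector of cohesion, was at -6.35 ± 0.83 on DDR-Sen day 1. That value rests on a level of only 1.26 normalized counts. On the same day the separase ESPL1 was at -2.73 ± 0.26 and the securin PTTG1 at -2.65 ± 0.18. After doxorubicin PTTG1 was at 408 normalized counts on day 0, 125 on day 1, 111 on day 2, 145 on day 3, 155 on day 4, 133 on day 6, 92.0 on day 8 and 82.5 on day 16.

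The spindle set held 5 tested members, all called lower in all 25 comparisons. TPX2, which activates AURKA on microtubules, went from 2658 in untreated cells to 900.2 on PMD-Sen day 0, 1129 on Ca2+-Sen day 0, 200.4 on DDR-Sen day 0 and 236 in RS (-3.49 ± 0.18). In RS DLGAP5, ASPM, HMMR and TROAP were at -5.34 ± 1.07, -4.80 ± 0.32, -4.58 ± 0.90 and -4.91 ± 1.18. In the cytokinesis set CEP55, which brings the abscission machinery to the midbody, was at 51.1 against 988 (-4.27 ± 0.81) and ANLN at 215 against 5272 (-4.62 ± 0.23) in RS. ECT2 was at 728 against 1596 (-1.13 ± 0.15) there and RACGAP1, its partner at the spindle midzone, at 249 against 1589 (-2.68 ± 0.20). In the chromosome set TOP2A went from 4592 to 748 on PMD-Sen day 0, 718 on Ca2+-Sen day 0, 205 on DDR-Sen day 0 and 84.3 on DDR-Sen day 1. The condensin ATPases SMC2 and SMC4 were at -1.14 ± 0.21 and -2.52 ± 0.22 in RS, and the condensin I subunits NCAPG and NCAPH at -5.11 ± 1.02 and -4.41 ± 0.31.

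**Figure D4:**
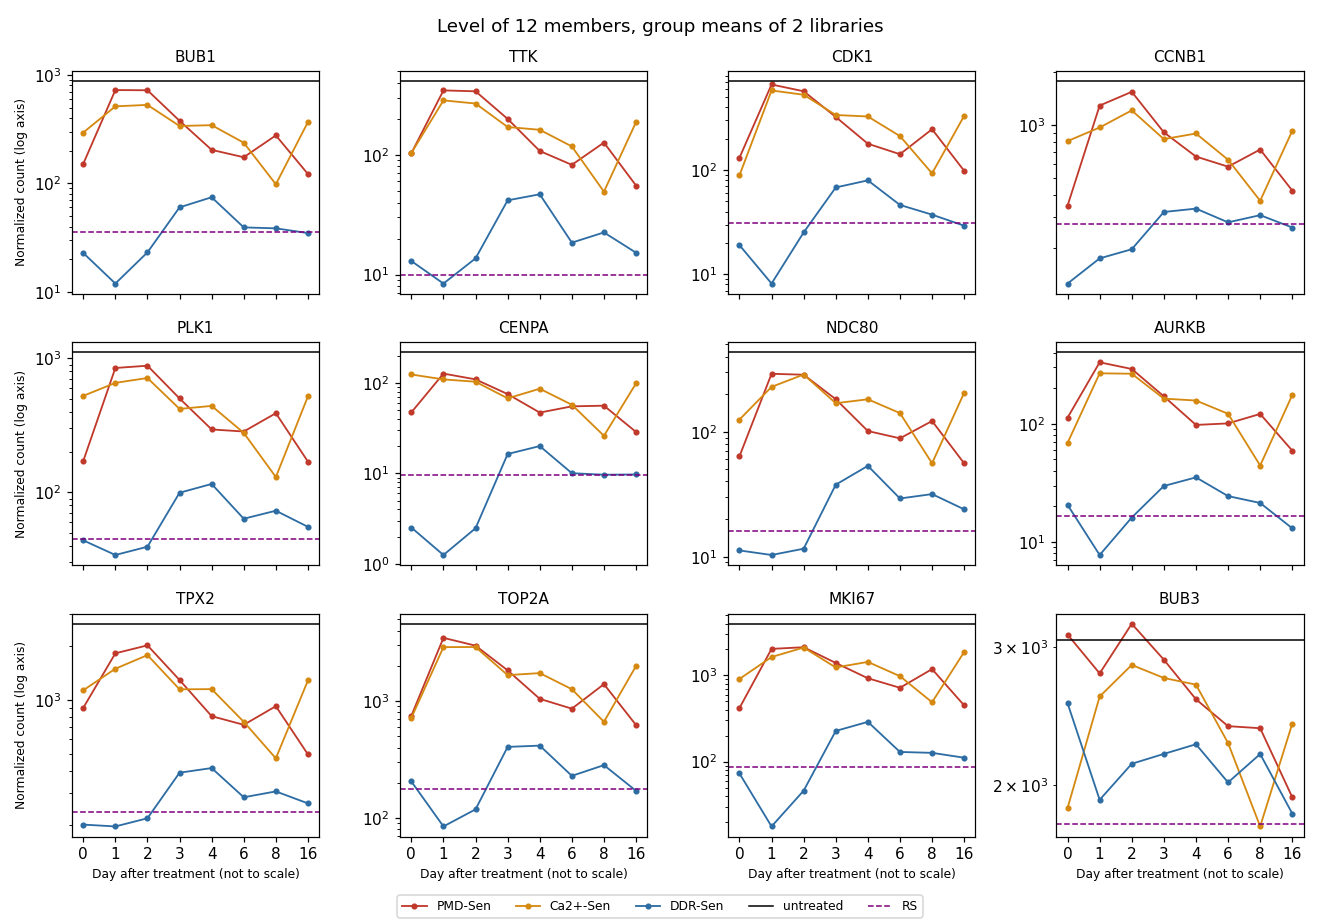
Level of 12 members in normalized counts (log axes, group means of 2 libraries) by day for PMD-Sen, Ca2+-Sen and DDR-Sen, with the untreated and RS levels as lines. BUB1 drops to 11.9 on DDR-Sen day 1, while BUB3 stays at 1771 to 3217 throughout.

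The other 4 members were not tested. SPC25, NUSAP1 and PRC1 had 12, 6.84 and 11.9 normalized counts in untreated cells, and SKA1 was listed at 0 there. Over the treated groups and RS the levels were 0.118 to 30.2 for SPC25, 0.408 to 4.74 for NUSAP1, 0.829 to 10.2 for PRC1 and 0 to 0.148 for SKA1. The counting settings are not given in the sources used here, PRC1-AS1 overlaps PRC1 in the GENCODE v29 annotation, and the part of the counting in these low values was not tested for any of the 4.

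The next comparison asked whether the inducers differ on the same day. Each difference of log2 fold changes was divided by a standard error that combines both comparisons. Because both use the same untreated libraries, this error is too wide and the calls are too few. On day 0, 20 members were lower in PMD-Sen than in Ca2+-Sen (18.1% of all genes) and 3 were higher (20.5%). Lowest in PMD-Sen by comparison were PLK1 (-1.61 ± 0.54), CDC25B (-1.56 ± 0.15) and CDC20 (-1.53 ± 0.53), CDC20 being the activator of the anaphase-promoting complex. Higher were CENPN (1.68 ± 0.22), BUB3 (0.74 ± 0.14) and MAD2L1 (0.72 ± 0.28). Of the members set out above, CENPA differed by -1.39 ± 0.43, CCNB1 by -1.22 ± 0.50, AURKB by 0.71 ± 0.33 and CDK1 by 0.56 ± 0.34, the last pair without a call.

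**Figure D5:**
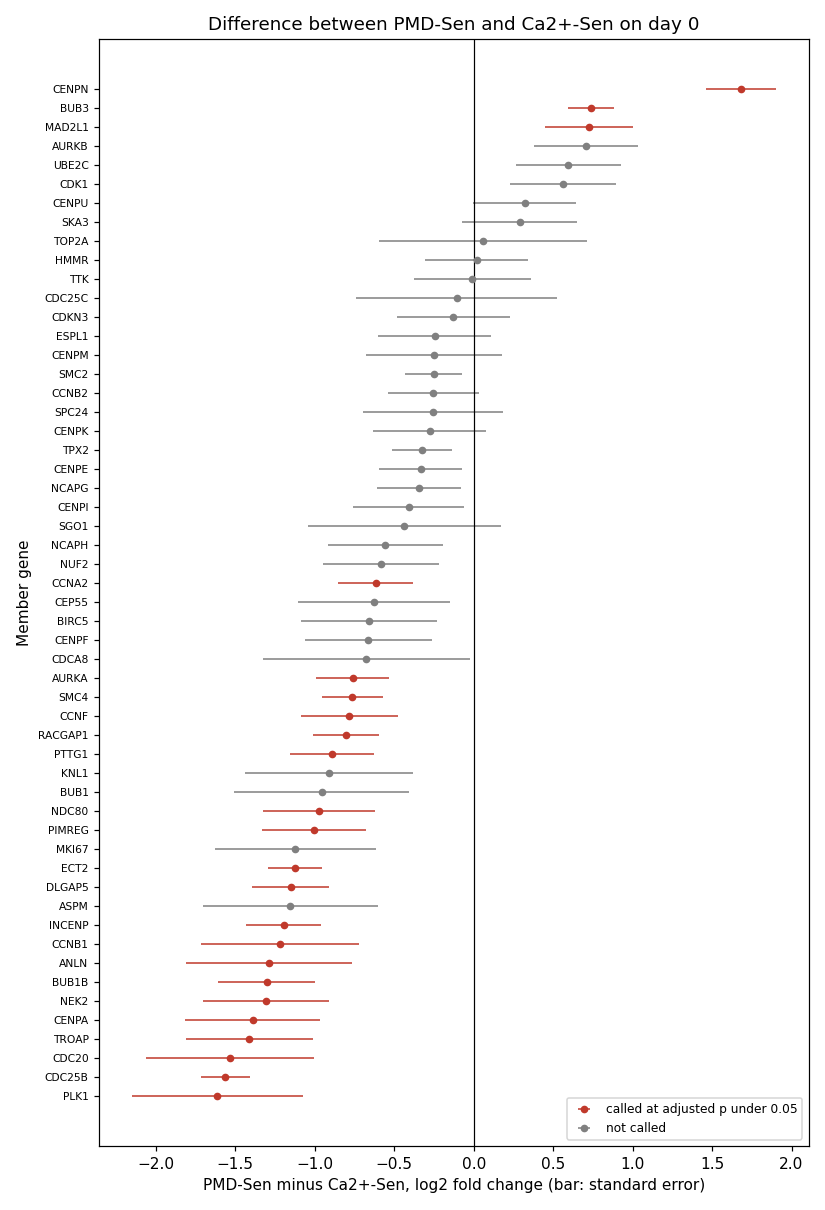
Difference of log2 fold change, PMD-Sen minus Ca2+-Sen, on day 0 for each tested member, with its standard error and the called members marked. PLK1 is lowest at -1.61 and CENPN highest at 1.68, and 44 of the 54 lie below 0.

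On days 1, 2 and 3 no member was called different between PMD-Sen and Ca2+-Sen (normal test, Benjamini-Hochberg), with 4.42%, 2.39% and 0.148% of all genes called. At an unadjusted p under 0.05 there were 14, 4 and 0 members, and 14, 4 and 0 were called once the shared untreated error was removed. Here and below, counts under an alternative setting come without the share of all genes, and show only how a count depends on the setting. The 95% interval of the difference for CDK1 on day 1 ran from -0.23 to 0.61. On day 4, 4 members were lower in PMD-Sen (0.108%), NCAPG (-1.02 ± 0.23), CENPE (-0.90 ± 0.21), TOP2A (-0.73 ± 0.14) and ANLN (-0.57 ± 0.13). That count was 30 with the shared untreated error removed and 1 with a difference of at least 1. On day 6 no member was called (0.0134%), and 0 had an unadjusted p under 0.05. The order turned over between days 8 and 16. On day 8, 39 members were higher in PMD-Sen (1.8%), by a median of 1.14 over the 54, with NUF2 (1.76 ± 0.38), SKA3 (1.61 ± 0.36) and TROAP (1.59 ± 0.39) first. On day 16, 36 were lower in PMD-Sen (1.98%), with a median difference of -1.59, led by CENPE (-2.46 ± 0.34), CENPF (-2.38 ± 0.69) and TROAP (-2.06 ± 0.49), and 54 of the 54 differences were below 0.

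More members were called different between PMD-Sen and DDR-Sen on each earlier day than on day 16. On day 0, 43 members were higher in PMD-Sen (15%), led by CENPA (4.22 ± 0.63), and 2 were lower (13.6%), PTTG1 (-0.86 ± 0.29) and CDC25B (-0.47 ± 0.16). All 54 were higher in PMD-Sen on day 1 (6.89%) and day 2 (4.71%), the lead on day 1 being UBE2C (7.21 ± 0.52) and MKI67 (6.84 ± 0.27). The numbers were 45 on day 3 (1.22%), 33 on day 4 (0.598%), 33 on day 6 (0.585%) and 43 on day 8 (0.766%). On day 16, 8 were called (0.175%), CDC20, UBE2C, AURKB, NCAPH, BUB1, BUB1B, PLK1 and CDCA8, with CDC20 higher by 2.63 ± 0.35. Of the 54 differences 52 were above 0, and 22 members were called with the shared untreated error removed. The medians of PMD-Sen and DDR-Sen lay closest together on days 4 and 16. They were -1.94 and -3.17 on day 4 and -2.86 and -4.07 on day 16, against -0.43 and -5.04 on day 1. The median SE of the PMD-Sen members was 0.167 on day 4 and 0.316 on day 16. The parts of the smaller differences and of the wider errors in the lower count on day 16 were not tested.

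Ca2+-Sen also lay above DDR-Sen. On day 0, 50 members were higher (18.3%), led by CENPA (5.61 ± 0.58), CDC20 (4.33 ± 0.23) and NEK2 (4.24 ± 0.42), and BUB3 (-0.45 ± 0.14) was lower, with 18.8% of all genes lower. PTTG1 was at 416 and 408 normalized counts, with a 95% interval of the log2 difference from -0.44 to 0.49. All 54 were higher on days 1 (4.67%) and 2 (2.47%), 45 on day 3 (1.15%), 45 on day 4 (1.02%), 31 on day 6 (0.639%), 22 on day 8 (3.02%) and 53 on day 16 (4.43%). The member without a call on day 16 was BUB3 (0.38 ± 0.15). With the shared untreated error removed the count on day 8 was 36.

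Within PMD-Sen, 48 members rose from day 0 to day 1 (15.6% of all genes), by a median of 1.71 over the 54, with SPC24 (2.63 ± 0.42), ANLN (2.53 ± 0.52) and KNL1 (2.48 ± 0.53) first, KNL1 being the platform on which the checkpoint assembles. CENPN (-0.55 ± 0.22) fell, with 13.5% of all genes lower. From day 1 to 2, PIMREG, PTTG1 and ANLN rose (2.55%). From day 2 to 3, 22 fell (0.511%), with a median difference of -0.68 and CENPE (-1.14 ± 0.22) in the lead, and from day 3 to 4 there were 6 (0.0941%), PIMREG, NCAPG, BIRC5, TOP2A, ANLN and TPX2. No member was called between days 4 and 6 (0.0874%) or 6 and 8 (0.0134%), where 2 and 11 had an unadjusted p under 0.05. On the second step 52 of the 54 differences were above 0, but the members share libraries, so this count is not a test. Between days 8 and 16, CENPE (-1.72 ± 0.34), CDC20 (-1.30 ± 0.31) and SMC4 (-1.14 ± 0.27) fell (0.0605%). The count for this step was 33 once the shared untreated error was removed and 1 with no filter on low values. Removing the shared error gave 6 from day 1 to 2, 38 from day 2 to 3, 28 from day 3 to 4, 1 from day 4 to 6 and 5 from day 6 to 8.

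The whole span shows where the group ended. Day 16 of PMD-Sen against day 1 gave 52 lower (10.8%), all but CDC25B and CDKN3. Against day 0 it gave 7 lower (14.6%), with CENPN (-1.80 ± 0.25) and CENPE (-1.27 ± 0.37) first, and CDC25B (1.06 ± 0.19) higher (13.7%). Compared with RS, 6 members were higher on day 16 (0.309%), TTK, PLK1, AURKB, BUB1, PTTG1 and TPX2, with TTK higher by 2.47 ± 0.57. That count was 27 with the shared untreated error removed and 2 with no filter on low values, and the count against day 0 was 17 with the shared error removed.

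Within Ca2+-Sen, 38 members rose from day 0 to day 1 (20.1%), led by CDK1 (2.70 ± 0.28), UBE2C (2.24 ± 0.26) and SPC24 (2.11 ± 0.35), while ECT2 (-0.80 ± 0.15) and CDC25B (-0.68 ± 0.14) fell (16.5%). No member was called from day 1 to 2 (1.71%), 7 fell from day 2 to 3 (0.134%; CDC20, TOP2A, CENPF, MKI67, PLK1, TPX2 and ANLN), and none was called from day 3 to 4 (0.161%) or 4 to 6 (0.195%). At an unadjusted p under 0.05 these steps without a call had 9, 0 and 12 members. From day 6 to 8, 7 fell (1.29%), led by NUF2 (-1.59 ± 0.48) and AURKB (-1.45 ± 0.41). From day 8 to 16, 50 rose (4.15%), by a median of 1.66, with NUF2 (2.23 ± 0.35), CEP55 (2.17 ± 0.23) and TROAP (2.08 ± 0.38) first, and CDC25B, CDC25C, INCENP and SGO1 were not called. With the shared untreated error removed, 7 members were called from day 1 to 2, 29 from day 2 to 3, 0 from day 3 to 4, 2 from day 4 to 6 and 29 from day 6 to 8.

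Day 16 of Ca2+-Sen against day 1 gave 5 lower (3.95%), UBE2C, CDK1, HMMR, NCAPG and TOP2A, and CDC25B (0.36 ± 0.13) higher (5.49%). Against day 0, 29 were higher (19.2%), led by CDK1 (1.90 ± 0.29) and SPC24 (1.74 ± 0.36), and ECT2 (-0.82 ± 0.15) was lower (15.3%). On day 16, 50 members were above RS (2.51%) by a median of 3.14, led by MKI67 (4.43 ± 1.07) and TTK (4.23 ± 0.48), and BUB3, INCENP, NEK2 and SMC2 were not called. Removing the shared error gave 16 members for day 16 against day 1.

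Within DDR-Sen the median was lowest on day 1. From day 0 to day 1, 13 members fell (2.27%), led by UBE2C (-2.63 ± 0.55) and BIRC5 (-2.35 ± 0.53), and SMC2 (0.59 ± 0.18) rose (1.28%). From day 1 to 2, CDK1, MKI67, ANLN, ASPM and AURKA rose (0.457%). From day 2 to 3, 22 rose (0.309%), led by NEK2 (3.03 ± 0.72), a mitotic kinase. NEK2 went from a low level of 2.48 normalized counts to 20.4. No member was called from day 3 to 4 (0.0336%) or from day 6 to 8 (0.941%), where 6 and 2 had an unadjusted p under 0.05. From day 4 to 6, ASPM (-1.39 ± 0.25), ANLN (-1.20 ± 0.17), TOP2A (-0.86 ± 0.17) and BIRC5 (-0.85 ± 0.24) fell (0.397%), and from day 8 to 16, AURKA (-0.84 ± 0.21) and TOP2A (-0.73 ± 0.20) fell (0.141%). With the shared untreated error removed there were 0 from day 3 to 4, 19 from day 4 to 6 and 1 from day 6 to 8, and with no filter 1 from day 8 to 16.

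Day 16 of DDR-Sen stood above day 1 for 15 members (4.77%), led by CENPA (2.96 ± 0.89), MKI67 (2.65 ± 0.50) and UBE2C (2.44 ± 0.57). CENPA and UBE2C started from only 1.26 and 3.14 normalized counts on day 1, so their differences rest on few reads. Against day 0, 3 were lower (6.45%), PTTG1 (-2.31 ± 0.29), PIMREG (-1.32 ± 0.31) and BUB3 (-0.47 ± 0.16), and 4 higher (6.22%), CENPA, CDCA8, CCNB1 and CEP55. Removing the shared error gave 25 members against day 1 and 14 against day 0, where no filter gave 4. No member was called different between DDR-Sen day 16 and RS (normal test, 0.148% of all genes), 0 had an unadjusted p under 0.05, and 0 were called with the shared untreated error removed. The median difference was 0.05, and the 95% intervals were wide, from -1.16 to 3.14 for DLGAP5 and from -0.93 to 0.88 for BUB1.

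The precision was uneven. In RS, 12 of the 54 members (22.2%, against 8.05% of all tested genes) had a standard error over 0.8, with NEK2 (1.72), TROAP (1.18), DLGAP5 (1.07), MKI67 (1.07) and BIRC5 (1.04) at the top and NCAPG, CDK1, UBE2C, HMMR, CENPE, CDC20 and CEP55 from 1.02 to 0.81. Elsewhere this held for CDK1 and ASPM on PMD-Sen day 16 (0.99 and 0.99), CDK1 on Ca2+-Sen day 6 (0.81), and CENPM, TROAP and SGO1 on DDR-Sen day 1 (1.10, 1.10 and 0.83). On Ca2+-Sen day 6 TTK (-1.82 ± 0.74), CDK1 (-1.76 ± 0.81) and TOP2A (-1.86 ± 0.69) were not called, although their changes were past 1 on the log2 scale. The median SE of the members in Ca2+-Sen was 0.356 on day 6, against 0.165 on day 4 and 0.185 on day 8. Over all tested genes it was 0.211 on day 6. The part of these wider errors in the counts that involve day 6 was not tested. Among the untested members SPC25, NUSAP1 and PRC1 exceeded 0.8 in all 25 tables.

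Other genes of mitosis were counted from lists of the remaining subunits and regulators, to be read against the 20.2%, 11% and 11.6% of all tested genes called lower on PMD-Sen day 0, on DDR-Sen day 1 and in RS. In that order, the 26 further centromere, Mis12 and RZZ genes had 15, 15 and 13 called lower, with medians of -0.74, -0.81 and -0.62, and HJURP, the chaperone of CENPA, was at -5.40 ± 0.26 on DDR-Sen day 1. The 4 further condensin genes had 4, 4 and 4 called lower, with NCAPG2 at -3.00 ± 0.14 on DDR-Sen day 1. Of 13 cohesin genes 6, 6 and 6 were called lower, with the acetyltransferase ESCO2 at -2.31 ± 0.40, -6.29 ± 0.63 and -4.35 ± 0.46. The 16 genes of the anaphase-promoting complex had 2, 3 and 2 called lower, shares near those of all genes. Of 14 tested HAUS and gamma-tubulin genes, which seed spindle microtubules, 6, 6 and 5 were called lower. ESCRT-III cuts the last bridge between daughter cells and also reseals damaged membranes, and of its 11 tested genes 3 were called lower and 3 higher on PMD-Sen day 0, near the 20.2% and 19.8% of all genes, with CHMP2B at 1.16 ± 0.13. On DDR-Sen day 1 and in RS 0 and 0 of them were called lower and 2 and 1 higher. Of the calls among all tested genes, 43.7% on DDR-Sen day 1 and 50.1% in RS were higher, and these small counts are not read as a result. Of the 11 regulators of the G2/M programme 5, 6 and 5 were called lower. MYBL2, the gene of B-MYB, was at -2.69 ± 0.25, -6.89 ± 0.40 and -5.88 ± 0.36, and FOXM1 at -1.66 ± 0.17, -4.20 ± 0.17 and -4.07 ± 0.32, so that both stood lower on DDR-Sen day 1 than on PMD-Sen day 0 by their values.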

How the data were processed

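Messenger RNA of WI-38 cells was measured by sequencing in 52 libraries (26 groups of 2). The submitters' processing notes name Trim Galore, HISAT2, HTSeq, featureCounts and DESeq2 and the builds GRCh38 and hg38. Their versions and settings are not given in the sources used here. The authors deposited comparison tables, and the 52 files hold 25 distinct tables. For each gene the deposited tables give the mean of normalized counts, a signal scaled by the authors' size factors, then a log2 fold change with standard error, a Wald statistic (a score), and p-values before and after adjustment. These are comparisons made by the authors, and no value per library was used here. The authors' adjusted p-value served only as an alternative. A row with no gene name was left out of 24 of them.

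Group levels were computed from each deposited mean and log2 fold change, and put on 1 scale through the 8645 genes that exceed 200 in all tables. Genes with a mean level of at least 10 were tested (14876). Benjamini-Hochberg adjustment of the deposited p-values was done per table, with a threshold of 0.05. Contrasts between inducers or days used the difference of log2 fold changes, its combined standard error and a normal p-value, adjusted likewise, with 95% intervals of 1.96 standard errors. Library sizes were recovered from the deposited values and cover counting only. All steps ran in Python 3.11.15 (SciPy 1.17.1, NumPy 2.4.6, pandas 2.3.3; figures in matplotlib 3.10.9). The calls, contrasts, level scale and recovery of library sizes were run on simulated data built on the same assumptions, so those runs check the code only. The promoter matching was not run on simulated data. The members and lists were chosen with earlier results of these data known. Named genes were 12 chosen by role, up to 3 at each end of a comparison, members called higher, up to 5 not called lower, up to 3 per further list and those with a standard error over 0.8. Others, among them AURKA, CDC25B, PTTG1, the CENP genes and the condensin subunits, were picked after their values were seen. Promoter windows came from RefSeq (GRCh38.p14). The alternatives were a mean of at least 100, no filter on low values, a log2 change of at least 1, scaling by total counts, the authors' adjusted p-value, removal of the shared untreated error, and a promoter window of 100 bases.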

Additional observations from a re-analysis of the deposited data

Results flagged for a closer look

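The number of members that differed between inducers on the same day, each tested by the difference of log2 fold changes, stands out as follows. PMD-Sen and DDR-Sen differed in 45 of the 54 members on day 0, 54 on day 1, 54 on day 2, 45 on day 3, 33 on day 4, 33 on day 6, 43 on day 8 and 8 on day 16. Ca2+-Sen and DDR-Sen differed in 51 on day 0, 54 on day 1, 54 on day 2, 45 on day 3, 45 on day 4, 31 on day 6, 22 on day 8 and 53 on day 16. PMD-Sen and Ca2+-Sen differed in 23 on day 0, 4 on day 4, 39 on day 8 and 36 on day 16, with opposite directions on the last pair of days. These counts are to be read against the share of all tested genes called, given with each count in the Results. In all 3 pairs that share was largest on day 0. For PMD-Sen against DDR-Sen, the medians lay closest together on days 4 and 16, and errors were wider on day 16 than on day 4. Each day is a separate set of libraries, with 2 per group, and the comparisons of a day share the untreated libraries.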

How the results depend on the processing

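Every count of members called lower against untreated cells stayed within 1.5 times its value under the filters, total scaling and the authors' adjusted p-values. With a log2 fold change of at least 1 the counts became 5 and 2 on PMD-Sen days 1 and 2 and 11 and 2 on Ca2+-Sen days 1 and 2, since the members then lay within that size of untreated. The same minimum gave 14 and 1 for PMD-Sen against Ca2+-Sen on days 0 and 4. Between days it gave 0 (days 1 to 2), 1 (2 to 3), 2 (3 to 4) and 5 (0 to 16) in PMD-Sen, 19 (0 to 1), 0 (2 to 3), 0 (1 to 16) and 12 (0 to 16) in Ca2+-Sen, and 3 (1 to 2), 2 (4 to 6) and 0 (8 to 16) in DDR-Sen. A mean of at least 100 gave 1 for PMD-Sen against Ca2+-Sen on day 1. With no filter, PMD-Sen gave 1 (days 8 to 16) and 2 (day 16 against RS), and DDR-Sen 1 (8 to 16) and 4 (0 to 16). Scaling by total counts gave 1 for DDR-Sen days 8 to 16, and moved the share of higher among all calls by over 10 percentage points only on Ca2+-Sen day 1, from 42.9% to 55.7%.

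Removing the shared untreated error narrows each error by construction, for all tested genes as for the members. The share of all genes called under an alternative is not given in this section. A larger or smaller count is therefore not a result about the members. This removal gave 22 for PMD-Sen against DDR-Sen on day 16 and 36 for Ca2+-Sen against DDR-Sen on day 8. For PMD-Sen against Ca2+-Sen it gave 14, 4 and 30 on days 1, 2 and 4. Between days it gave in PMD-Sen 6 (1 to 2), 38 (2 to 3), 28 (3 to 4), 1 (4 to 6), 5 (6 to 8), 33 (8 to 16), 17 (0 to 16) and 27 (day 16 against RS). It gave in Ca2+-Sen 7 (1 to 2), 29 (2 to 3), 2 (4 to 6), 29 (6 to 8) and 16 (1 to 16), and in DDR-Sen 19 (4 to 6), 1 (6 to 8), 25 (1 to 16) and 14 (0 to 16). In the 100 bases before the start, 28.8% of members' windows held the CHR (4.61% of all windows) and 52.5% the CCAAT box (18.1%). CHR and CCAAT box together were in 18.6% (0.923%). The CHR variant was in 1.69% (0.339%), which is 1 of the 59 windows of members. Where no cause is given above, the cause was not tested.

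No paired analysis was possible because the deposited tables hold no value per library. For the same reason the fits without each replicate and with the replicate number as a block were not run. With 2 libraries per group the precision is limited, and members under 10 normalized counts, as many as 11 on DDR-Sen day 1, rest on few reads.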
